A study of Mus musculus with 6 samples.

Results

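Collagen genes were taken as all rows of the deposited table whose symbol follows the form Col, a type number, the letter a and a chain number, which gave 44 of 24318 rows. They were grouped by the kind of structure that the protein forms into 11 fibrillar chains, 6 chains of basement membrane type IV, and the rest. The samples were whole livers of C57BL/6 mice of genotype VEcadCreERT2/TAK1flox/flox, with loxP-flanked alleles of TAK1 (gene Map3k7) and a tamoxifen-inducible Cre under a VE-cadherin promoter, which is active in endothelium. All mice had this genotype; the 3 knockout samples had received tamoxifen and the 3 control samples nothing, so deletion and tamoxifen cannot be told apart, and the labels give no age or time after treatment. Values are FPKM (fragment numbers divided by transcript length and by the mapped fragments of the library), so levels can be compared between genes.

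Collagens are secreted proteins built from 3 chains wound into a triple helix. Fibrillar collagens (types I, III and V) assemble into the banded fibres of scar and connective tissue, and type IV collagen forms the sheet of basement membranes. In liver the fibrillar chains are known mainly from stellate cells and portal fibroblasts, type IV collagen also from endothelium, and type XVIII collagen, the source of endostatin, also from hepatocytes. In whole tissue, more cells of a type and more RNA per cell cannot be told apart.

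Most collagen genes with enough RNA to be tested were more abundant in the knockout livers. Of the 44 genes, 18 reached the mean of 0.5 FPKM over the 6 libraries needed for the test. Of these 18, 13 rose, Col13a1 fell, and 4 did not pass (limma on log2(FPKM + 0.5), Benjamini-Hochberg adjusted p under 0.05 over 11842 genes). Among all genes tested, 14.1% rose and 13% fell by the same rule. All 3 knockout libraries lay above all 3 control libraries for 14 of the 18, where 22.4% of all genes tested did so, and below them for 2, where 21.1% did so. The median log2 fold change of the 18 was 1.77, beside -0.0007 over all genes tested. Col12a1 reached the mean only through its knockout values and Col13a1 only through its control values, so both had to differ between the groups to be tested. With every library rescaled to the same summed FPKM, 11 collagen genes rose and 1 fell, and over all genes 1356 rose and 2081 fell, against 1669 and 1534 as deposited.

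**Figure D1:**
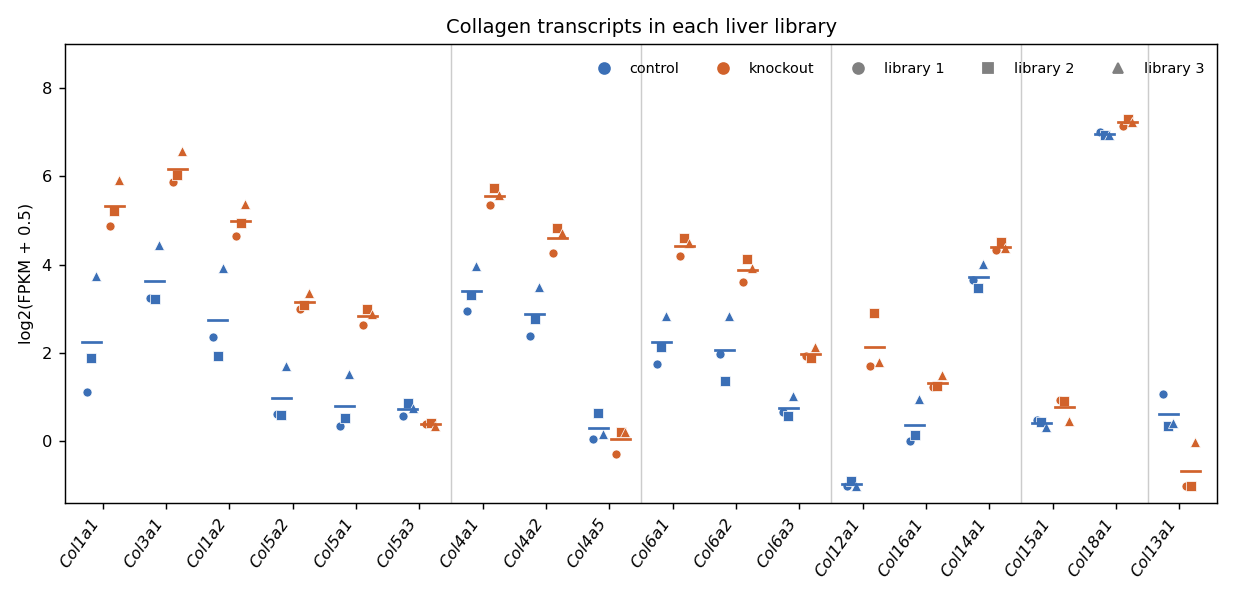
Levels of the 18 collagen genes tested, as log2(FPKM + 0.5), in each of 3 control and 3 knockout libraries (marker shape gives the library, the bar the group mean), with classes separated by vertical lines in the order fibrillar, basement membrane, beaded filament, fibril-associated, multiplexin and membrane-spanning. Knockout libraries lie above control libraries for 14 genes, and control 3 is the highest control for 12.

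Control 3 stood apart from the other control libraries. It held the highest control value for 12 of the 18 genes, 5 of the 6 fibrillar chains among them. Its summed neutrophil and monocyte marker level (11 genes) was 340 FPKM, against 137 and 136 FPKM in controls 1 and 2 and 2152 to 2326 FPKM in the knockouts. Most of this sum in control 3 was Lyz2, at 264 FPKM against 99.5 and 85.6 FPKM in controls 1 and 2. S100a9, Csf3r, Camp and Ltf were not highest in control 3 among the controls, and the remaining markers were. Its summed level of 14 endothelial markers was 240 FPKM, against 148 and 172 FPKM in the other controls and 54.4 to 64.0 FPKM in the knockouts. Clec4g alone took 44.4 to 63.8 FPKM of this sum in controls and 0 to 0.381 FPKM in knockouts. The part of either in the collagen values was not tested. Without control 3, 13 collagen genes still rose. Of 9 hepatocyte markers 3 fell (Ttr, Cyp2e1 and Hnf4a) and 1 rose, with summed levels of 23319 to 30843 FPKM in control and 22184 to 25964 FPKM in knockout libraries. The rise and the fall of Hnf4a were each lost without any 1 library. Map3k7 RNA measured 8.50 to 9.14 FPKM in control and 7.35 to 9.31 FPKM in knockout libraries, a whole-liver value that does not check the deletion in endothelium.

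The 5 main fibrillar chains of types I, III and V rose together. Their class summed to 18.5, 19.0 and 55.5 FPKM in the control libraries and to 126, 148 and 215 FPKM in the knockout libraries, which is 5.26-fold between group means and 8.70-fold without control 3. The sums did not overlap between groups, and knockout 3 had the highest. Fibrillar chains made up 14.6% ± 7.39 of all collagen FPKM in controls (10.1% and 10.6% in controls 1 and 2, 23.1% in control 3) and 35.5% ± 5.79 in knockouts (SD, n = 3 each).

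Col3a1, the single chain of type III collagen of reticular fibres, had the highest level of the class. It measured 8.97, 8.90 and 21.2 FPKM in the controls and 58.0, 64.5 and 95.3 FPKM in the knockouts. Every knockout value was more than the highest control value, and the log2 fold change was 2.52 ± 0.32 (SE, limma adjusted p = 7.32e-04). Both chains of type I collagen, the most abundant protein of scar, behaved in the same direction. Col1a1 stood at 1.67, 3.18 and 12.8 FPKM in controls 1 to 3 and at 28.9, 36.8 and 60.5 FPKM in knockouts 1 to 3 (log2 fold change 3.10 ± 0.57, limma adjusted p = 0.00392). Col1a2 stood at 4.65, 3.33 and 14.8 FPKM in controls 1 to 3 and at 24.7, 30.2 and 40.9 FPKM in knockouts 1 to 3 (log2 fold change 2.24 ± 0.44, limma adjusted p = 0.00559). The groups did not overlap for either chain, but control 3 was several times the other controls. Without it the log2 fold change was 3.84 for Col1a1 and 2.84 for Col1a2.

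Type V collagen, which is built into type I fibrils and limits their width, was lower in level. Col5a1 stood at 0.766, 0.954 and 2.40 FPKM in controls 1 to 3 and at 5.71, 7.47 and 6.87 FPKM in knockouts 1 to 3 (log2 fold change 2.03 ± 0.32, limma adjusted p = 0.00186). Its partner Col5a2 stood at 1.04, 1.02 and 2.76 FPKM in controls 1 to 3 and at 7.49, 8.01 and 9.84 FPKM in knockouts 1 to 3 (log2 fold change 2.17 ± 0.31, limma adjusted p = 0.00119). Neither gene overlapped between the groups. Between group means the fold in FPKM was 4.87 for Col5a1 and 7.77 without control 3, and 5.25 for Col5a2 and 8.20 without control 3. Col5a3, the remaining chain of the type, did not pass the test. It measured 0.995, 1.33 and 1.18 FPKM in the controls and 0.816, 0.835 and 0.771 FPKM in the knockouts, with a log2 fold change of -0.35 (95% interval -0.92 to 0.23). All 3 knockout values of Col5a3 lay below all 3 control values (limma adjusted p = 0.356).

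Promoter sequences of 3 fibrillar genes that rose are shown because these genes, 1 from each of types I, III and V, moved together. Each run holds the 250 bases before the start of the promoter entry in RefSeq, on the plus strand, written 5′ to 3′. They come from GRCm38.p6, which is not the build of the deposited values. Col1a2 lies at chr6:4505368-4505617, Col3a1 at chr1:45311288-45311537 and Col5a1 at chr2:27886175-27886424. In Col5a1 the annotated gene begins at 27886381, inside the run, so the run's last bases lie within the gene. Searched on both strands were GGGCGG (a GC box, CCGCCC on the other strand), CCAAT, the TATA-like TATAAA, the letters CAGACA known from Smad binding (TGTCTG on the other strand) and TGANTCA known from AP-1 binding. Capitals mark every match.
Col1a2: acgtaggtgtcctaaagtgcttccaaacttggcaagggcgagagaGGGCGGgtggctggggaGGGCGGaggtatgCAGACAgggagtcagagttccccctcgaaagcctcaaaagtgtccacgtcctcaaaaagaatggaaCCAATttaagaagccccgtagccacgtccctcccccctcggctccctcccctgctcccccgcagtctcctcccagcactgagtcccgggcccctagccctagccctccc
Col3a1: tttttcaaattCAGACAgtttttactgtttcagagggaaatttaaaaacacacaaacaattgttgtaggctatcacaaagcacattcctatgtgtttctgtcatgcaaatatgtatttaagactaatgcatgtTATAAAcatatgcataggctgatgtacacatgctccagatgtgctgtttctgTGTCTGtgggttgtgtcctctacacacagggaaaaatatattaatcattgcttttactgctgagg
Col5a1: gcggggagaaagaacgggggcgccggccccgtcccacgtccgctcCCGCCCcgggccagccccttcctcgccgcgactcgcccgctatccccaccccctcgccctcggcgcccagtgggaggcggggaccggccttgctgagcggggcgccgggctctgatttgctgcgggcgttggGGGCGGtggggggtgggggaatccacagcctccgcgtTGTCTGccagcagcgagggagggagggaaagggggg

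All 3 runs held CAGACA, which begins 175 bases before the start in Col1a2, 239 and 65 bases in Col3a1 and 36 bases in Col5a1, and none held TGANTCA. Start here is that of the promoter entry. The Col5a1 match lies within the annotated gene and not upstream of it, so the runs do not show these letters upstream of all 3 genes. The Col1a2 run held 2 GC boxes, which begin 205 and 188 bases before the start, and 1 CCAAT that begins 109 bases before it. The Col5a1 run held 2 GC boxes, which begin 205 and 73 bases before the start. The Col3a1 run held neither GC box nor CCAAT but a TATAAA that begins 117 bases before the start. G and C made up 62.0% of the Col1a2 run, 76.4% of the Col5a1 run and 35.2% of the Col3a1 run, beside a median of 52.4% over all promoters in the RefSeq table. Over these 32851 promoters, 32.7% held GGGCGG, 33.8% CCAAT, 17.1% CAGACA, 12.4% TATAAA and 6.75% TGANTCA in the same window. Promoters were listed for 35 of the 44 collagen genes and for 9 of the 13 that rose. These 9 genes had 10 listed promoters, of which 6 held GGGCGG, 4 CCAAT, 3 CAGACA, 1 TATAAA and 1 TGANTCA. Of all 38 promoters listed for the 35 collagen genes, 22 held GGGCGG, 13 CCAAT, 9 CAGACA, 5 TATAAA and 1 TGANTCA. A match of letters is a description and shows no binding.

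Of the basement membrane chains, Col4a1 and Col4a2 rose, and together they summed to 12.0, 15.8 and 25.8 FPKM in the controls and 59.3, 80.9 and 73.2 FPKM in the knockouts. They form the common type IV molecule of vessels and are neighbouring genes in RefSeq's GRCm38.p6 annotation, as are Col4a3 and Col4a4, Col4a5 and Col4a6, and the fibrillar pair Col3a1 and Col5a2. Col4a1 stood at 7.31, 9.41 and 15.1 FPKM in controls 1 to 3 and at 40.5, 53.0 and 47.4 FPKM in knockouts 1 to 3 (log2 fold change 2.15 ± 0.24, limma adjusted p = 3.98e-04). Col4a2 stood at 4.71, 6.35 and 10.7 FPKM in controls 1 to 3 and at 18.8, 27.9 and 25.7 FPKM in knockouts 1 to 3 (log2 fold change 1.72 ± 0.28, limma adjusted p = 0.00213). Neither gene overlapped between groups. Of 14 endothelial markers 10 fell and none rose in the same livers (8 fell and 3 rose without control 3). Pecam1, Cdh5, Stab2 and Emcn were the 4 that did not pass over all 6 libraries. Their control means were 11.2, 15.3, 8.56 and 2.94 FPKM, and their knockout means 9.59, 17.7, 10.3 and 3.71 FPKM. Clec4g and Ptprb among those that fell were tested through their control values alone, and the part of endothelium in the type IV values was not tested. Col4a5, a chain of the minor type IV molecules, measured 0.547, 1.06 and 0.630 FPKM in the controls and 0.318, 0.657 and 0.668 FPKM in the knockouts. Its groups overlapped, and its log2 fold change of -0.25 had a 95% interval of -0.96 to 0.47.

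The minor chains Col4a3, Col4a4 and Col4a6 were under the level needed for the test. Col4a3 measured 0.149, 0.155 and 0.0917 FPKM in the controls and 0.238, 0.266 and 0.216 FPKM in the knockouts, without overlap. In a fit with no filter on low values its adjusted p was 0.389 (limma). Col4a4 and Col4a6 stayed at or under 0.239 FPKM in every library.

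All 3 tested chains of type VI collagen, which forms beaded filaments around cells, rose. Col6a1 stood at 2.87, 3.90 and 6.62 FPKM in controls 1 to 3 and at 18.0, 23.7 and 22.2 FPKM in knockouts 1 to 3 (log2 fold change 2.195 ± 0.26, limma adjusted p = 5.45e-04). Its genomic neighbour Col6a2 stood at 3.43, 2.09 and 6.65 FPKM in controls 1 to 3 and at 11.7, 16.9 and 14.8 FPKM in knockouts 1 to 3 (log2 fold change 1.83 ± 0.33, limma adjusted p = 0.00392). Col6a3, the largest chain, stood at 1.09, 0.985 and 1.54 FPKM in controls 1 to 3 and at 3.31, 3.20 and 3.92 FPKM in knockouts 1 to 3 (log2 fold change 1.23 ± 0.23, limma adjusted p = 0.00457). None of the 3 genes overlapped between groups. Col6a4, Col6a5 and Col6a6, which can stand in for Col6a3, were under the test level. Col6a4 reached 0.0628 and Col6a6 0.356 FPKM, and Col6a5 reached 0.721 FPKM in control 3 and 0.787 FPKM in knockout 2 but at most 0.200 FPKM in the other libraries.

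**Figure D2:**
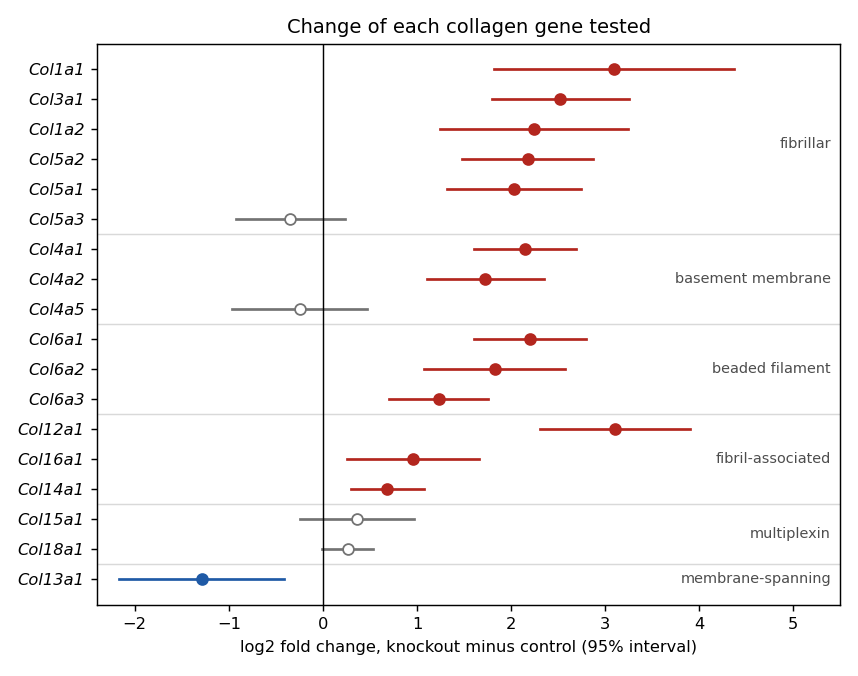
Log2 fold change of knockout against control for each of the 18 collagen genes tested, on the log2(FPKM + 0.5) scale, with the 95% interval from limma. Filled red points passed the test as higher (13), the filled blue point as lower (Col13a1), and open points did not pass (4). Type I, III, V (without Col5a3), IV (without Col4a5) and VI chains lie between 1.23 and 3.10.

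Fibril-associated collagens coat the surface of fibrils or link them to other matrix. Col12a1, found on type I fibrils of tissue under tension, was listed at 0, 0.0378 and 0 FPKM in the controls and at 2.75, 6.955 and 3.002 FPKM in the knockouts. It was near 0 in all controls and clearly measured in all knockouts, with knockout 2 the highest (log2 fold change 3.10 ± 0.35, limma adjusted p = 4.25e-04). As the controls are near 0, its log2 fold change ran from 2.28 to 5.16 with the constant added before the log. Col14a1, a fibril-associated chain already abundant in control liver, measured 12.1, 10.7 and 15.8 FPKM in the controls and 19.7, 22.3 and 20.3 FPKM in the knockouts. The groups did not overlap, and the log2 fold change was 0.69 ± 0.17 (limma adjusted p = 0.0171). That call was lost without control 1 (adjusted p = 0.0600), without control 2 (0.0733), and when each library was rescaled to the same summed FPKM (0.0576). Col16a1, which occurs in small amounts near fibrils and basement membranes, measured 0.501, 0.607 and 1.46 FPKM in the controls and 1.84, 1.87 and 2.36 FPKM in the knockouts. Its log2 fold change of 0.96 ± 0.31 only just passed (limma adjusted p = 0.0490), and the call was lost without any 1 library other than control 3 and under 5 of 12 other settings that keep the 6 libraries (adjusted p from 0.0138 to 0.154 over every setting).

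The multiplexins, basement membrane collagens whose triple helix is broken many times, did not pass the test. Col18a1 had the highest level of any collagen gene in all 6 libraries. It measured 128, 123 and 123 FPKM in the controls and 141, 157 and 151 FPKM in the knockouts. The groups did not overlap, but the log2 fold change was only 0.26 (95% interval -0.01 to 0.54, limma adjusted p = 0.136). With quantile normalization the log2 fold change was 0.62 and passed (limma adjusted p = 0.00434). Col15a1, the relative of Col18a1 in capillary and muscle basement membranes, measured 0.898, 0.847 and 0.752 FPKM in the controls and 1.41, 1.40 and 0.886 FPKM in the knockouts. Its knockout 3 value lay within the range of the controls, and the log2 fold change of 0.36 had a 95% interval of -0.24 to 0.97.

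Col13a1, a collagen anchored in the cell membrane, was the only member to fall. It measured 1.62, 0.779 and 0.831 FPKM in control libraries and was listed at 0, 0 and 0.489 FPKM in the knockouts (log2 fold change -1.29 ± 0.39, limma adjusted p = 0.0369). The groups did not overlap. The call was lost without control 2, control 3, knockout 1 or knockout 2 (adjusted p of 0.0597 to 0.102), and with the replicate number as a block (0.0528). Without control 1 the gene was under the level needed for the test. Its log2 fold change was -2.63 with 0.1 FPKM added before the log, where the call was lost (adjusted p = 0.0508), and -0.84 with 1 FPKM added. Its remaining relatives were hardly detected, with Col17a1 and Col25a1 listed at 0 in every library and Col23a1 at 0.0705 to 0.163 FPKM.

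The other members were at or near 0. In all, 26 collagen genes were under the test level, and 8 of them were listed at 0 in every library. Tested with limma without that filter, none of the other 18 was called, and none had an unadjusted p under 0.05 (lowest adjusted p 0.162). Those 8 were Col2a1, Col9a1, Col9a2 and Col9a3 of cartilage, Col17a1, Col19a1, Col25a1 and Col26a1. The fibrillar chains Col11a1, Col11a2 and Col24a1 reached at most 0.131 FPKM, and Col27a1 measured 0.175 to 0.311 FPKM with overlapping groups. The short-chain network collagens Col8a1, Col8a2 and Col10a1 reached at most 0.407 FPKM, in knockout 1 for Col8a1. Col20a1 was listed at 0.105, 0.217 and 0.0965 FPKM in control and at 0 in all knockout libraries. Col22a1, Col28a1 and the anchoring fibril collagen Col7a1 reached at most 0.0991 FPKM.

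All 44 genes summed to 182, 180 and 240 FPKM in the controls and 386, 466 and 508 FPKM in the knockouts, which is 2.26-fold between group means. Col18a1 alone took 63.2% ± 10.5 of this sum in control and 33.3% ± 3.43 in knockout libraries (SD, n = 3 each). Without Col18a1 the sums were 54.5, 57.0 and 117 FPKM in the controls and 246, 309 and 358 FPKM in the knockouts. Control 3 again lay between the other controls and the knockouts. In the control livers the order by mean level after Col18a1 was Col3a1, Col14a1, Col4a1, Col1a2, Col4a2 and Col1a1, and in that order no gene's range lay wholly above the next. In knockout livers it was Col3a1, Col4a1, Col1a1, Col1a2, Col4a2, Col6a1 and Col14a1, where the range of Col3a1 lay wholly above that of Col4a1 and the next 5 steps overlapped.

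**Figure D3:**
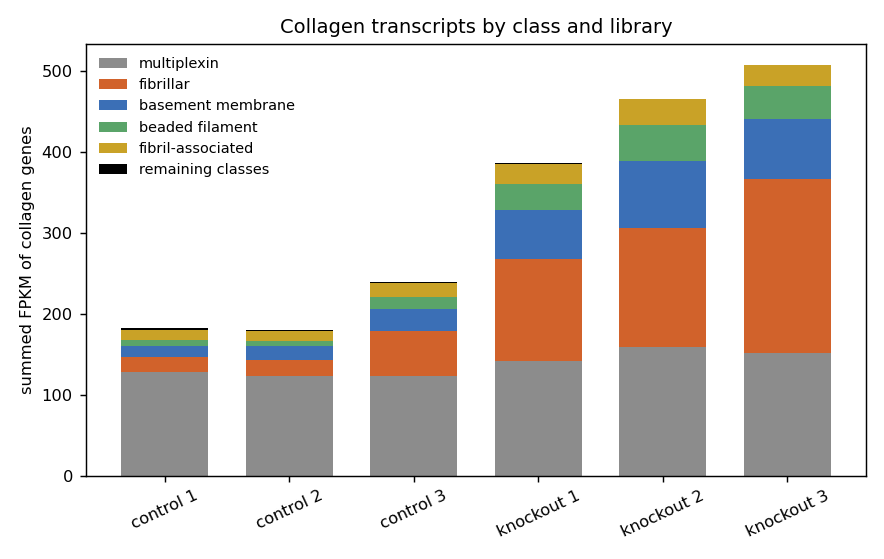
Summed FPKM of the collagen genes in each library, stacked by class, with the 3 smallest classes joined as remaining. The multiplexin part, nearly all Col18a1, is 123 to 129 FPKM in controls and 142 to 159 FPKM in knockouts, while the fibrillar part goes from 18.5 to 55.5 FPKM in controls to 126 to 215 FPKM in knockouts.

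Whether 2 chains changed by the same amount was asked by their ratio within each library, for 8 pairs. Of these pairs, Col1a1 with Col1a2, Col4a1 with Col4a2 and Col6a1 with Col6a2 join chains of one molecule, and the others join chains of different collagen types. With 3 against 3 libraries the exact two-sided permutation test cannot go below p = 0.1, so no pair can pass, and the adjusted p over the 8 pairs was 0.2 or more. Col1a1 was 0.359, 0.954 and 0.867 times Col1a2 in control and 1.17, 1.22 and 1.48 times Col1a2 in knockout libraries. Col1a2 thus exceeded Col1a1 in every control and the reverse held in every knockout (difference in log2 ratio 0.85, and 0.48 without control 1, exact permutation p = 0.1). Col4a1 was 1.55, 1.48 and 1.41 times Col4a2 in control and 2.15, 1.90 and 1.84 times Col4a2 in knockout libraries, again without overlap (0.42, exact permutation p = 0.1). The log2 ratio of Col4a1 to Col18a1 was -3.55 ± 0.53 in control and -1.67 ± 0.11 in knockout libraries (SD, n = 3 each), without overlap (exact permutation p = 0.1).

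The other pairs overlapped or hung on the added 0.5 FPKM. The log2 ratio of Col4a1 to Col1a1 was 1.17 ± 0.84 in control and 0.22 ± 0.49 in knockout libraries (SD, n = 3 each, exact permutation p = 0.3), a difference of -0.95 that was -0.61 without control 1. Col3a1 against Col1a1 (p = 0.3), Col6a1 against Col6a2 (p = 0.4) and Col15a1 against Col18a1 (p = 0.7) overlapped too (exact permutation tests). Col5a2 against Col3a1 did not overlap on the log2(FPKM + 0.5) scale (exact permutation p = 0.1), but as plain FPKM it was 0.114 to 0.130 in control and 0.103 to 0.129 in knockout libraries, which overlap.

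**Figure D4:**
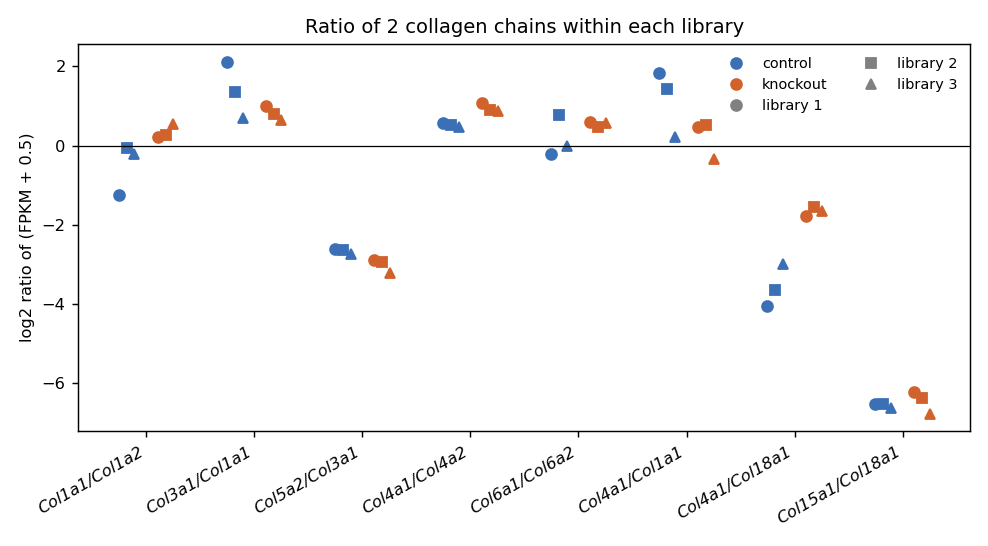
Log2 ratio of (FPKM + 0.5) of 2 collagen genes within each of 3 control and 3 knockout libraries, for 8 pairs (marker shape gives the library). Knockout libraries lie above control libraries for Col1a1/Col1a2, Col4a1/Col4a2 and Col4a1/Col18a1 and below them for Col5a2/Col3a1.

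Genes that modify and assemble collagen were described from lists chosen by function, and their counts stand beside the 14.1% of all genes tested that rose and the 13% that fell. P3h2, Lox, Mmp8 and Mmp9 reached the level needed for the test only through their knockout values, so they had to differ between the groups to be tested. Of 15 tested genes for modification and folding, 8 rose and none fell (median log2 fold change 0.77), and 5 rose without control 2. P4ha2, a subunit of the prolyl hydroxylase that stabilises the triple helix, measured 3.20, 3.11 and 3.32 FPKM in the controls and 11.5, 28.6 and 12.3 FPKM in the knockouts (limma adjusted p = 0.00131). The lysyl hydroxylase Plod2 had a log2 fold change of 1.66 ± 0.31, the prolyl 3-hydroxylase P3h2 of 1.89 ± 0.34 (1.35 to 3.10 over the settings tried) and the chaperone Fkbp10 of 1.62 ± 0.35 (limma adjusted p of 0.00343 to 0.00889). Of 14 tested genes for export, trimming and cross-linking, 7 rose and none fell (median 0.77). Tgm2, the tissue transglutaminase, measured 64.5, 57.4 and 75.3 FPKM in the controls and 476, 1035 and 707 FPKM in the knockouts (limma adjusted p = 5.87e-05). The lysyl oxidase gene Lox was listed at 0, 0 and 0.720 FPKM in the controls and at 2.99, 5.11 and 5.93 FPKM in the knockouts (limma adjusted p = 0.00111). Its relative Loxl2 had a log2 fold change of 2.60 ± 0.27, and the collagen-binding protein Sparc of 1.22 ± 0.27 (limma adjusted p = 2.96e-04 and 0.00928).

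Of 13 tested breakdown genes, 4 rose and 2 fell (median 0.67), and the share that fell is near that of all genes. Risers were the neutrophil collagenase Mmp8, the gelatinases Mmp9 and Mmp2, with log2 fold changes of 4.19, 4.19 and 1.36, and the membrane-bound collagenase Mmp14. The genes that fell were the membrane-bound Mmp15 (log2 fold change -1.30) and the inhibitor Timp3, which went from 7.66 ± 0.519 to 3.72 ± 0.337 FPKM (SD, n = 3 each, limma adjusted p = 0.00385). Mmp14 and Timp3 were chosen after their values were seen. All 11 neutrophil and monocyte markers tested rose as well (Camp, Ltf and F13a1 were tested through their knockout values alone), and their part in the Mmp8 and Mmp9 values was not tested. Of 6 tested collagen receptors, Itgb1 and the leukocyte receptor Lair1 rose (log2 fold changes 0.58 and 1.43), but Itgb1 lost its call without control 1 or control 2 and with libraries rescaled (adjusted p up to 0.0707). Of 11 tested partners of type IV collagen in basement membranes, 4 rose and none fell. These were the nidogens Nid1 and Nid2 and the laminin chains Lamb1 and Lamc1, with log2 fold changes of 2.203, 0.92, 1.60 and 1.38. Nid2 was not called without control 1 or knockout 1 (adjusted p up to 0.0560).

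Markers of cells known to make fibrillar collagen were counted in the same way. Of 7 tested myofibroblast and smooth muscle markers 6 rose, and their summed level (9 genes) was 17.6, 17.6 and 18.5 FPKM in the controls and 60.0, 91.1 and 144 FPKM in the knockouts. Actg2 was tested through its knockout values alone, and its call was lost with quantile normalization and without knockout 2. Control 3, which had the highest fibrillar control value, was thus close to the other controls in these markers. Tagln measured 5.66, 5.25 and 5.78 FPKM in the controls and 26.3, 48.4 and 72.4 FPKM in the knockouts, and Acta2 2.80, 2.73 and 2.26 FPKM in the controls and 9.90, 16.1 and 27.4 FPKM in the knockouts. Of 14 stellate cell markers 3 rose and 3 fell, with summed levels of 235 to 259 FPKM in control and 233 to 275 FPKM in knockout libraries. Des, which rose, is in both this list and the myofibroblast list and is counted in each. Of 12 tested portal fibroblast and mesothelial markers 2 rose (Pi16 and Lum) and 1 fell (Upk3b), near the shares of all genes. Pi16 was tested through its knockout values alone. Summed levels over 13 genes were 27.1 to 32.4 FPKM in control and 44.0 to 51.7 FPKM in knockout libraries, with Gli1 at 0 in every library. Lum alone measured 7.35 to 8.03 FPKM in control and 21.2 to 22.6 FPKM in knockout libraries. As the list pools 2 kinds of cell, its count describes neither alone. The part of these cells in the collagen values was not tested.

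**Figure D5:**
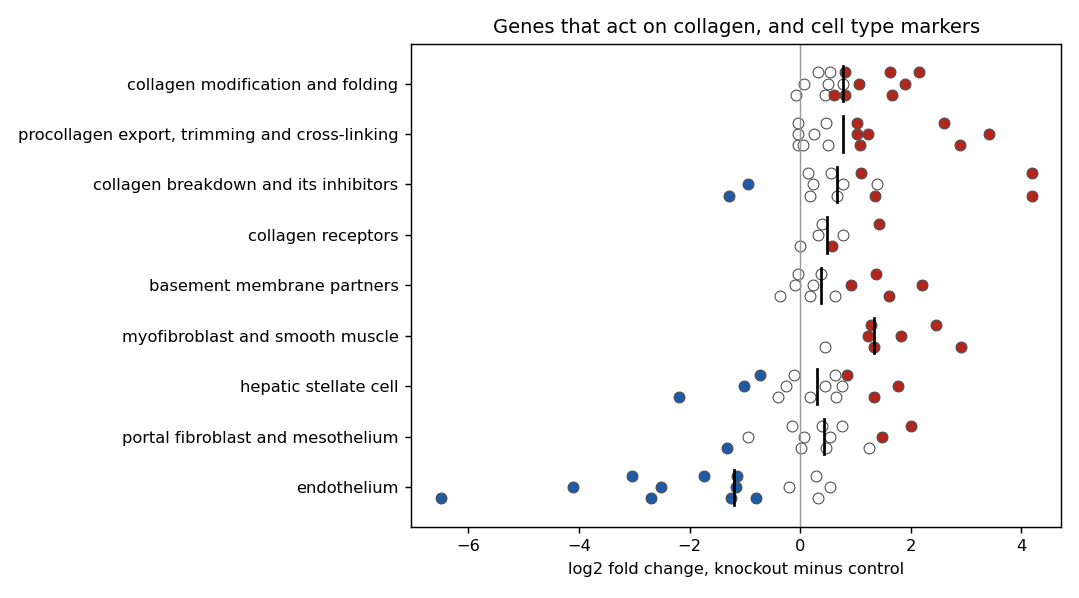
Log2 fold change of knockout against control for each tested gene of 5 lists of genes that act on or beside collagen and 4 lists of cell type markers, with red for genes that rose, blue for those that fell, open points for those that did not pass, and a black line at each list's median. Medians are 0.77 for modification and for export, 1.34 for myofibroblast markers and -1.21 for endothelial markers.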

How the data were processed

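Liver RNA of 3 control and 3 knockout libraries was sequenced as paired ends (TruSeq Sample Prep v2, per the labels' protocols). The FPKM values were made by the authors; the submitters' processing notes name Trimmomatic 0.33, TopHat2 2.1.0, mm9 and both Cuffdiff and Cuffnorm at version 2.2.1. The gene annotation and strand setting are not given in the sources used here. Read depth is unknown, so no counting interval is given, and a value of 0 can be a failed estimate. Alb, listed at 0 in all controls, was left out.

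The groups were compared on log2(FPKM + 0.5) with limma 3.58.1 (R 4.3.3, two-sided, trend of variance with level). Genes needed a mean of 0.5 FPKM or more. Calls use a Benjamini-Hochberg adjusted p under 0.05 over all genes tested. The added 0.5 understates changes of low genes. Every collagen gene is accounted for. Per function list, up to 4 called genes with the largest change are named. The members, lists and tests were chosen with earlier results of these data known. The labels do not say that replicates are separate animals, so p-values reflect only how these libraries vary. The script was tested on simulated data. The alternatives were other pseudocounts, filters, scalings and variance models, the replicate number as a block, and 1 library omitted at a time. Promoters came from RefSeq.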

Additional observations from a re-analysis of the deposited data

How the results depend on the processing

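Collagen genes that rose numbered 11 to 13 over 12 alternatives with all 6 libraries and 11 to 13 when 1 library was left out, and only Col14a1 and Col16a1 lost this call where they were tested. The count of collagen genes that fell, 1 (Col13a1), was 0 with a pseudocount of 0.1, with a minimum mean of 1 FPKM, with genes at 0 in any library left out and with the replicate block, and 0 to 1 when 1 library was left out. Both filters left Col13a1 untested, as did leaving out control 1; otherwise the cause was not tested. With the replicate number as a block, 13 collagen genes rose. Correlations of deviations between same-numbered libraries were -0.01 to 0.0015, and no library correlated best with its own number. No deviation shared by number was thus seen, but with 3 libraries per group this cannot show whether the numbers pair the samples. Rescaling each library to the same summed FPKM shifted the median change over all genes (log2) to -0.11 from -0.0007 and the calls over all genes from 1669 higher and 1534 lower to 1356 and 2081; 11 collagen genes rose and 1 fell. The Col15a1 to Col18a1 ratio changed sign with quantile normalization (-0.51, against 0.10) and ranged from -0.022 to 0.26 without 1 library; the cause was not tested. Without the filter on low values, 18 more collagen genes were tested with limma and none was called (lowest adjusted p 0.162); read depth, which limits such low genes, is unknown.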

Other observations

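Knockout libraries differed among themselves in which matrix genes were highest. Knockout 3 had the highest value of all libraries for Col1a1, Col1a2, Col3a1 and Col5a2 and for the contractile genes Tagln (72.4 FPKM, against 26.3 and 48.4) and Acta2 (27.4 FPKM, against 9.90 and 16.1). Col6a3 (3.92 FPKM, against 3.31 and 3.20) and Col16a1 were also highest in knockout 3. Knockout 2 had the highest for Col4a1, Col4a2, Col6a1, Col6a2, Col12a1, Col14a1 and the fibrillar Col5a1 (7.47 FPKM, against 5.71 and 6.87), and for the nidogen Nid1 (52.9 FPKM, against 29.5 and 30.2), P4ha2 (28.6 FPKM, against 11.5 and 12.3) and Tgm2 (1035 FPKM, against 476 and 707). These genes were chosen after their values were seen, and differences within a group were not tested.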
